A study of Caenorhabditis elegans with 2 samples.

Results

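The sex determination genes of Caenorhabditis elegans examined here are xol-1, her-1, tra-2, tra-3, fem-1, fem-2, fem-3, tra-1, fog-1 and fog-3, chosen by name for their role in the pathway, although with earlier results of these data known. They are 10 of the 19971 protein-coding genes on the 6 nuclear chromosomes. For each gene, the peaks of a chromatin immunoprecipitation and sequencing (ChIP-seq) experiment against CEC-7 were collected where they touched the gene body or the 500 bp on either side. CEC-7, encoded by Y37D8A.11, belongs to the worm's chromodomain proteins, a class whose namesake fold often binds methylated histone tails.

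The chromatin came from whole worms of strain fem-2(b245), genotype fem-2(b245)III, at the stage labelled germline-containing young adult, of hermaphrodite sex and kept at 20 degrees Celsius. The series has 1 ChIP library, made with an affinity-purified rabbit polyclonal antibody, and 1 library of input DNA, both labelled replicate 2 and both from this mutant. There is no second genotype, and whole worms mix germline and somatic nuclei. The ChIP library alone had a peak list to analyse, so the values have no replicate spread behind them and no test was made. The list held 2767 peaks, whose total read depth is not given in the sources used here. Each has a score set by the authors with MACS, ranging from 50.02 to 1951.83 with a median of 127. Its scale is not stated, and it serves here only to rank peaks within the list.

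In this species the ratio of X chromosomes to autosomes sets the sexual fate of soma and germline through a chain of mostly inhibitory steps. XOL-1 is the early switch that is active in males. The secreted protein HER-1 inhibits the membrane receptor TRA-2, which in hermaphrodites restrains FEM-1, FEM-2 and FEM-3. The FEM proteins in turn act against TRA-1, a zinc finger transcription factor of the Gli family that directs female somatic fate. In the germline, FOG-1 and FOG-3 are required for cells to become sperm rather than oocytes. The b245 allele carried by these worms is known as a temperature-sensitive loss-of-function allele of fem-2.

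CEC-7 peaks lay at 5 of the 10 genes, tra-2, tra-1, fog-1, fem-2 and fem-1, and at 4 of them they lay on the gene body itself. The peak near fem-1 was beside the gene and not on it. The other 5 genes, xol-1, her-1, tra-3, fem-3 and fog-3, had no peak within 500 bp. The background differed widely among chromosomes. Chromosome III, with tra-1 and fem-2, had a peak within 500 bp of 37.2% of its protein-coding genes, and chromosome I, with both fog genes, of 29.6%. The share was 21.3% on II, the chromosome of tra-2, and 16.1% on IV, where fem-1, fem-3 and tra-3 lie. It dropped to 8.03% on V (her-1) and to 0.183% on X (xol-1), and was 17.5% over all 6 chromosomes. When each of the 10 genes was given the share of the other genes on its own chromosome, the shares summed to 2.11 genes. On the gene body alone, 4 genes stood beside a sum of 1.82. There the share was 32.3% for III, 25.4% for I, 18.6% for II, 13.7% for IV, 6.75% for V and 0.183% for X, and 15.1% over all protein-coding genes. When the list was limited to the 50% of peaks with the highest score, tra-1 and tra-2 kept a peak within 500 bp and the other 8 genes had none, where 11.2% of all protein-coding genes had one and the chromosome shares summed to 1.37. With these peaks the count of 2 was close to its background.

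Gene length and surroundings moved this yardstick. Among genes of the same chromosome between 0.5 and 2 times the length of each listed gene, the shares summed to 2.72 genes. Among the 20 protein-coding genes on either side of each, they summed to 2.5. The count of 5 was above each of these sums, but it rests on 10 genes from 1 library and was not tested. Bases in peaks made up 24.6% of the summed bodies of the 10 genes, against 10.5% over all protein-coding genes and 14.4% over the other genes of the same chromosomes, weighted by the lengths of the 10. Most of those bases lay in tra-1 and tra-2. With the 50% of peaks with the highest score, the share was 12.6%, against 10.1% weighted in the same way.

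**Figure D1:**
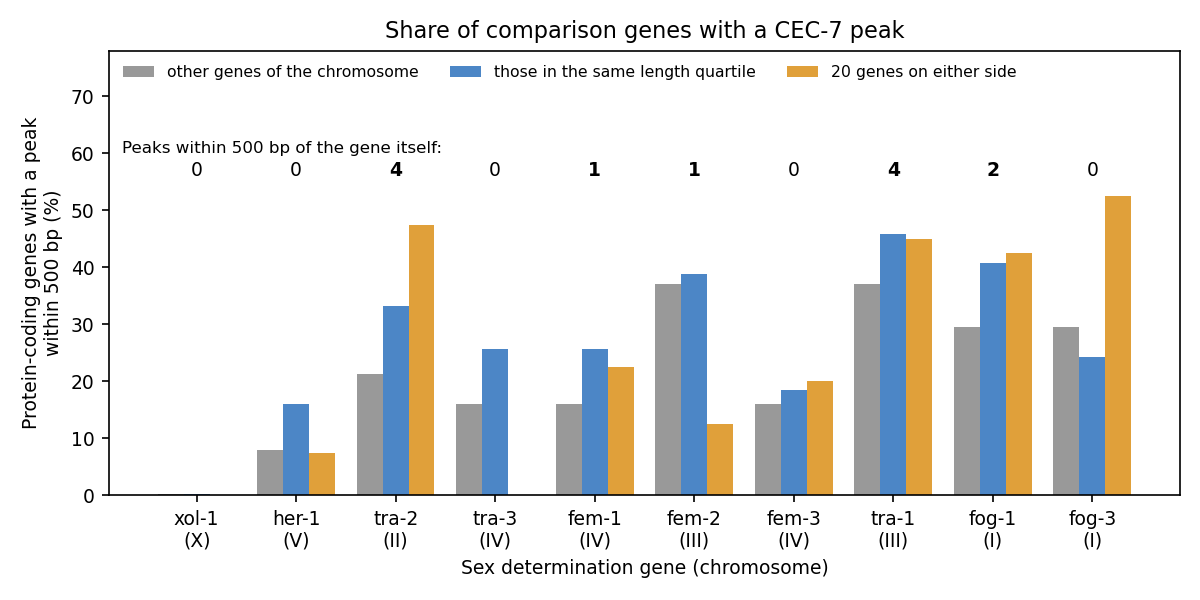
Percent of protein-coding genes with a CEC-7 peak within 500 bp, for 3 sets of comparison genes per listed gene: all others of its chromosome, those in the same quartile of gene length, and the 20 genes on either side. Numbers above the bars give the peaks at the gene itself, from 0 to 4, and the bars of xol-1 are too low to see.

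The 12 peaks at these genes were of ordinary width and mostly of modest score. Their widths ran from 1120 to 3823 bp with a median of 1886 bp, against 1987 bp over the whole list. Their scores ran from 52.95 to 450.52 with a median of 102. The median of the whole list, 127, was exceeded by 4 of the 12, all of them at tra-2 or tra-1. Of the 12 peaks, 7 lay wholly inside a listed gene and touched no other protein-coding gene, whereas the other 5 also lay over a neighbour.

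The receptor gene tra-2 on chromosome II carried the highest scores of the set. It is 10290 bp long in the gene table, and 61.0% of its body was in peaks. The peak at II:6961044-6964866 lay wholly inside the gene, in its right-hand portion, with its middle at 73.6% of the gene's length from the left end. It was 3823 bp wide and scored 360.78, higher than 85.6% of all peaks, at rank 398 of 2767. A weaker peak of 2506 bp at II:6955250-6957755, with a score of 86.13, covered the left end of tra-2. Its overhang past that end was only 134 bp, close to the difference between the genome builds used for peaks and genes.

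Both ends of tra-2 thus adjoined or met peaks that reach into the next gene. The strongest peak of the set, II:6951858-6955218 with a score of 450.52, ended 166 bp to the left of tra-2 and lay over ceh-38, whose body was 90.7% covered. The peak at II:6965589-6967147, with a score of 118.53, had 85 bp over the right end of tra-2. The rest of it lay towards or over eif-2Bgamma, the gene next on that side. Left of the gene, therefore, the score of 450.52 belongs to a peak over ceh-38 and not on tra-2. The highest score on the body of tra-2 was 360.78. The 85 bp over the right end are fewer than the difference between builds, so the peaks on the body of tra-2 may number 3 or 2. Of the 3445 other genes on II, 26 had 3 or more (0.755%) and 126 had 2 or more (3.66%). Among the 407 genes of like length, between 0.5 and 2 times that of tra-2, 21 had 3 or more (5.16%) and 68 had 2 or more (16.7%). The bodies of those 407 were covered to 15.0% on average.

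The region around tra-2 was itself rich in peaks. Of the 40 neighbouring protein-coding genes, 19 had a peak within 500 bp, or 47.5%, against 21.3% for the chromosome. The gene's high coverage therefore came with high occupancy nearby, and the part of the surroundings in it was not tested.

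The protease gene tra-3, whose calpain product cleaves TRA-2, was far from any peak for a gene of its chromosome. It lies on chromosome IV, and no peak was listed from IV:14076766 to IV:14788030, a stretch of 711 kb. This was the second longest of the 433 gaps between neighbouring peaks on IV, where the median gap was 9019 bp, and it held 100 whole protein-coding genes, tra-3 among them. The nearest peaks were 344 kb to the right, at IV:14788031-14793718 with a score of 647.29, and 360 kb to the left, at IV:14071823-14076765 with a score of 272.77. Of the other genes on IV, 99.1% had a peak as near or nearer. None of the 40 neighbouring genes had a peak either, so the lack of peaks at tra-3 was shared by its whole neighbourhood.

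**Figure D2:**
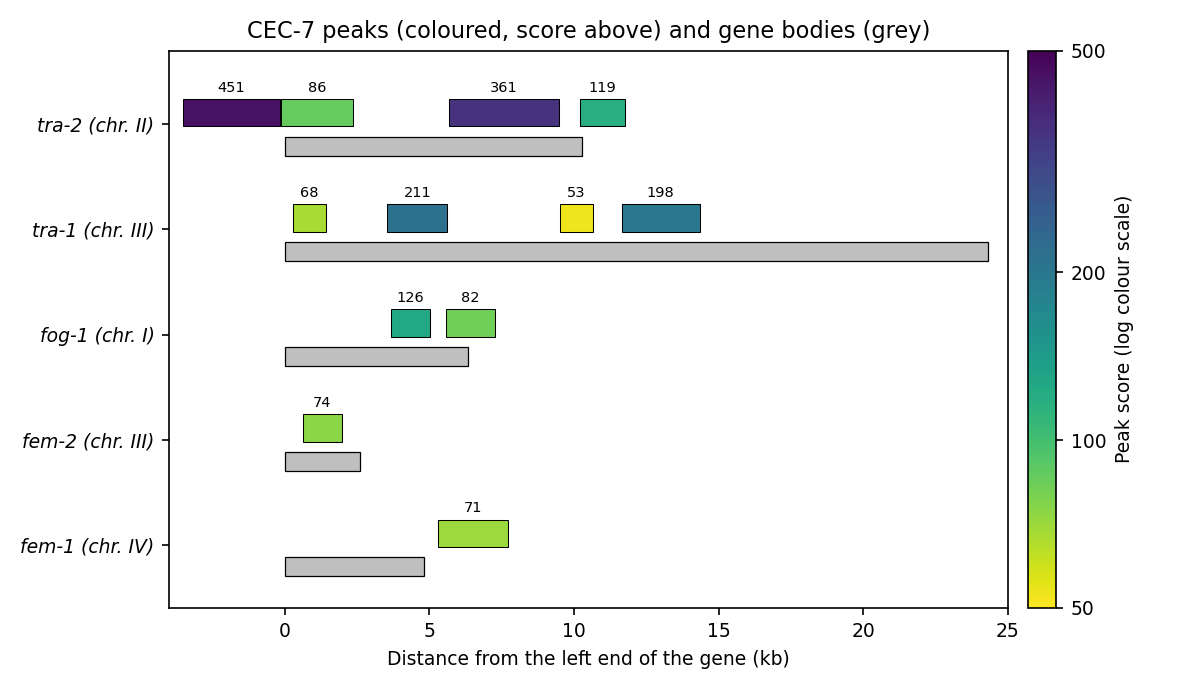
Positions of CEC-7 peaks (coloured by score, with the score printed above) relative to the bodies of the 5 genes with a peak within 500 bp (grey). Distances in kb are from the left end of each gene as it lies on the chromosome, regardless of its reading direction, which the gene table does not give. The 4 peaks of tra-1 leave its right-hand 9973 bp uncovered, and the peak of fem-1 lies outside the gene.

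The gene of the last factor of the somatic chain, tra-1 on chromosome III, also had 4 peaks, all wholly inside its body. At 24312 bp it is the longest of the 10 genes, and 28.9% of it was in peaks. From left to right the peaks were III:11171178-11172297 with a score of 67.67, III:11174439-11176506 with 211.05, III:11180394-11181541 with 52.95 and III:11182537-11185228 with 198.37. Stronger and weaker peaks thus alternated, and the weakest, at rank 2655 of 2767, was close to the lowest score of the list.

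The peaks ran from the left end of tra-1 to just past its middle. The first began 288 bp inside the left end and the last, centred at 53.4% of the length, ended 9973 bp short of the right end. From there no peak was listed until III:11235470-11236749, 40.3 kb beyond the gene. Of the 2641 other genes on III, 15 had as many peaks on the body (0.568%). Length bears on this count, since among the 114 others between 0.5 and 2 times as long, 11 had 4 or more (9.65%) and the median was 1. The share of the body in peaks was less unusual, as 24 of those 114 genes were covered at least as much and their mean was 15.8%. Within 500 bp, 55.3% of those 114 genes had a peak. The highest score at tra-1 was matched or exceeded at 51.6% of the other genes on III that had a peak.

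Of the 3 FEM genes, fem-2 had a peak on its body, fem-1 had one beside it and fem-3 had none. The gene mutated in this strain, fem-2, encodes a protein phosphatase of the PP2C class and lies on chromosome III. Its single peak, III:632639-633998, was 1360 bp wide and sat in the middle of the gene, with its centre at 49.8% of the length. It began 620 bp inside the left end and ended 628 bp inside the right end, so that 52.1% of the 2608 bp body was covered and no other gene was touched. These margins exceed the difference between builds. Of the 1485 other genes of like length on III, 372 were covered at least as much. Within 500 bp, 37.6% of those 1485 genes had a peak.

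The fem-2 peak was weak. Its score of 74.48 was higher than 23.7% of all peaks, at rank 2112 of 2767. Of the 981 other genes on III with a peak, 87.3% had a score as high or higher, and their median was 215. The next gene on the right, eakr-4, had a stronger peak at III:635352-637377, with a score of 138.68, which began 726 bp beyond fem-2. The next on the left, T19C3.6, had none. Peaks were sparse in this part of III, since 5 of the 40 neighbouring genes had one (12.5%), against 37.1% of the other genes on the chromosome. No library of another genotype was part of the series, so whether the mutation moves this peak cannot be told.

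The ankyrin repeat protein FEM-1 is encoded on chromosome IV. Its peak, IV:5538421-5540849, was 2429 bp wide with a score of 70.60, higher than 21.0% of all peaks. It began 459 bp past the right end of fem-1 and covered most of the neighbour drp-1, of which 82.1% was in peaks. None of the 4823 bp of fem-1 lay in a peak. Its place within 500 bp depends on less than the difference between builds: with all genes shifted 150 bp to the left, fem-1 had no peak and the count fell from 5 to 4. On the left the nearest peak was 42.7 kb away.

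The third FEM gene, fem-3, also on IV, had its nearest peak 9.06 kb to the left, at IV:9093416-9095905 with a score of 252.9. To the right the first peak, IV:9195901-9196915 with a score of 64.81, was 88.3 kb away. The gap around fem-3 held 18 whole protein-coding genes, fem-3 among them, and measured 100 kb, rank 47 by length among the 433 on IV. Among its 40 neighbours, 8 had a peak, or 20%, close to the 16.1% of the chromosome. For fem-3 the lack of a peak was therefore the common state of genes on IV.

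The germline genes fog-1 and fog-3, both on chromosome I, differed. FOG-1 belongs to the CPEB family of RNA-binding proteins, and FOG-3 to the Tob family. At fog-1, 33.5% of the 6321 bp body was in peaks. The first, I:3214719-3216082, was 1364 bp wide and lay inside the gene, its middle at 68.9% of the length, with a score of 126.14 at rank 1397 of 2767. The second, I:3216615-3218319, scored 82.09, covered the right end by 752 bp and reached into rom-5. Among the 2876 other genes of I, 145 had as many as 2 peaks on the body (5.04%), and among the 935 of like length, 101 had (10.8%). Genes of like length had a peak within 500 bp in 39.7% of cases. Their bodies were covered to 20.3% on average, and 242 of the 935 were covered at least as much as fog-1. Of the 40 genes neighbouring fog-1, 17 had a peak (42.5%), against 29.6% of the other genes on I.

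The short gene fog-3, of 1357 bp, had no peak, although its neighbours had peaks more often than those of any other of the 10. Of its 40 neighbouring genes 21 had one (52.5%), against 29.6% on the chromosome. Most genes of like length on I also lacked one, as 334 of 1404 had a peak within 500 bp (23.8%). The nearest peak was 9.3 kb to the right, at I:10027426-10028937 with a score of 88.77, and the next on the left was 24.0 kb away, at I:9990012-9992802 with a score of 211.32. Of the other genes on I, 59.1% had a peak as near or nearer. The gap around fog-3 was 34.6 kb, against a median of 4352 bp on I.

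**Figure D3:**
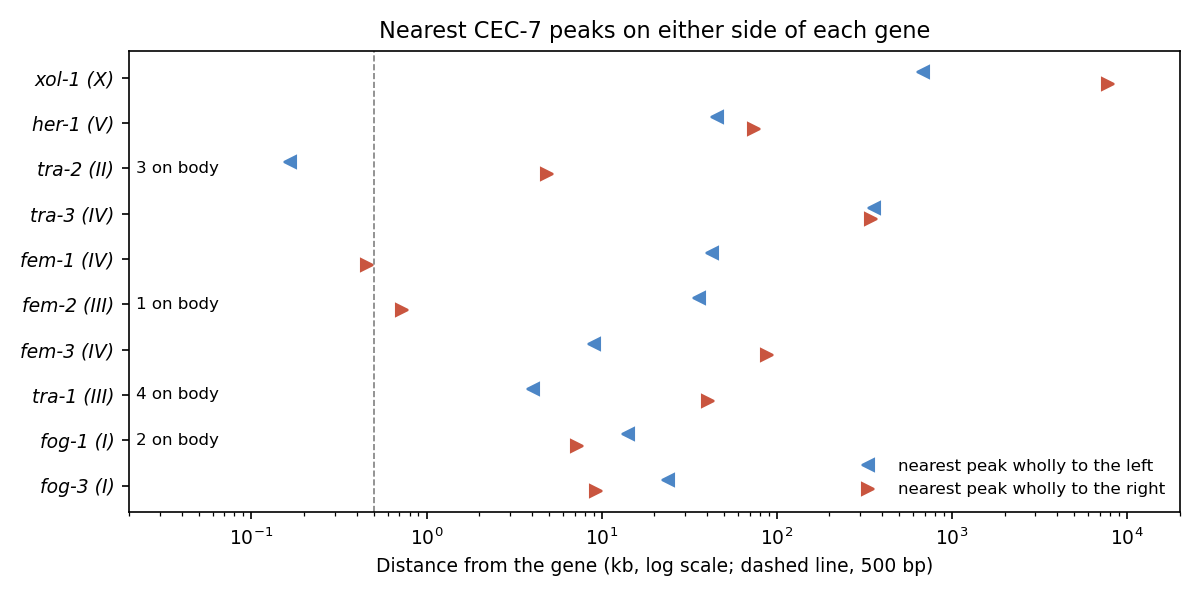
Distance in kb, on a log scale, from each of the 10 genes to the nearest CEC-7 peak wholly to its left and wholly to its right, with the number of peaks on the body written at the left. Distances run from 0.166 kb at tra-2 to 7762 kb at xol-1, and tra-3 is 344 kb or more from a peak on both sides.

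The 2 genes that act at the top in males, her-1 and xol-1, had no peak, and neither was unusually far from one for its chromosome. The nearest peaks to her-1 on chromosome V were 45.7 kb to the left, at V:9645780-9651281 with a score of 135.43, and 73.8 kb to the right, at V:9775878-9779421 with a score of 320.24. Of the other genes on V, 54.8% had a peak as near or nearer, so her-1 stood near the middle of its chromosome, and 3 of its 40 neighbours had a peak. For xol-1 on X the nearest was 680 kb to the left, at X:7353836-7361499 with a score of 313.38. On X, 28.1% of genes were as near or nearer to a peak, and 5 of the other 2729 had one within 500 bp. Both genes shared the lack of a peak with most genes of their chromosomes.

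The rest of the pathway was examined with a list of 38 further genes from textbook knowledge, also drawn up with earlier results of these data known, of which 37 were found by symbol in the gene table. Peaks lay within 500 bp of 18 of the 37, where the shares of their chromosomes summed to 6.97. They were divided unevenly among the roles, a division chosen after seeing the data. Of 20 matched germline regulators 16 had a peak, against a sum of 5.33 from their chromosomes and of 6.3 from genes in the same quartile of length. Of the 3 regulators of FEM and TRA proteins 2 had one, against a sum of 0.453. None of the 8 X signal elements and early regulators had one, against a sum of 0.515, and none of the 6 targets and effectors, against 0.669. Of the 37 genes, 7 lie on X, where 0.183% of genes had a peak. No test was made between these groups. Genes of like function outside the pathway were not compared. Whether the count of 16 of 20 is particular to regulators of germline sex was therefore not tested.

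Higher scores than any at the 10 genes were found at 5 germline regulators. Over the 16 with a peak, however, the median of the highest scores was 195, and 7 were in the upper 25% of all peak scores. These 16 genes lie on I, II and III. Among all genes with a peak there, the median highest score was 177 on I, 197 on II and 215 on III, so scores at the 16 were ordinary as a group. The peak of gls-1, which encodes a partner of the translational regulator GLD-3, spanned I:8737890-8742283 with a score of 874.06, rank 42 of the list. The peak of mog-3 at III:5308741-5317974 scored 779.08, that of mog-4 at II:14559005-14562281 scored 547.31 and that of mog-1 at III:9950502-9956136 scored 517.81. The mog genes are named for the masculinized germline of their mutants. The ataxin-2 homologue atx-2 had a peak of 664.92 at III:10461504-10469606. Below the 450.52 beside tra-2 came the Pumilio-family gene puf-8, with 423.78 at II:7292165-7297353. At gld-2, which encodes a cytoplasmic poly(A) polymerase, the score reached 281.13.

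Lower scores were found at other RNA regulators. They were 209.81 at larp-1, whose whole body was covered, 179.44 at the Nanos-family gene nos-3, 156.2 at rnp-8 and 137 at daz-1. They fell further to 118.45 at mog-5, 111.29 at fbf-2, 100.15 at the helicase gene laf-1 and 93.87 at mog-2. The lowest was 57.87 at gld-1, an RNA-binding repressor of tra-2 translation, although that peak covered 93.5% of the gene. Of the 16 peaks with the highest score at each gene, 7 touched no other protein-coding gene and 9 also lay over a neighbour. The pathway genes mog-3, mog-1, atx-2, larp-1 and puf-8 are among those that shared the peak.

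The 4 germline regulators with no peak were fog-2, gld-3, fbf-1 and mag-1. The paralogs fbf-1 and fbf-2 are close copies of each other. Whether the aligner divided reads between them was not tested, so the absence at fbf-1 is uncertain. The ubiquitin ligase subunit CUL-2 acts with the FEM proteins against TRA-1, and its gene had a peak of 146.86 at III:13688325-13692442. The F-box gene sel-10 had one of 126.75 at V:13820934-13822810. Of the other genes, 37.1% on III and 8.01% on V had a peak.

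**Figure D4:**
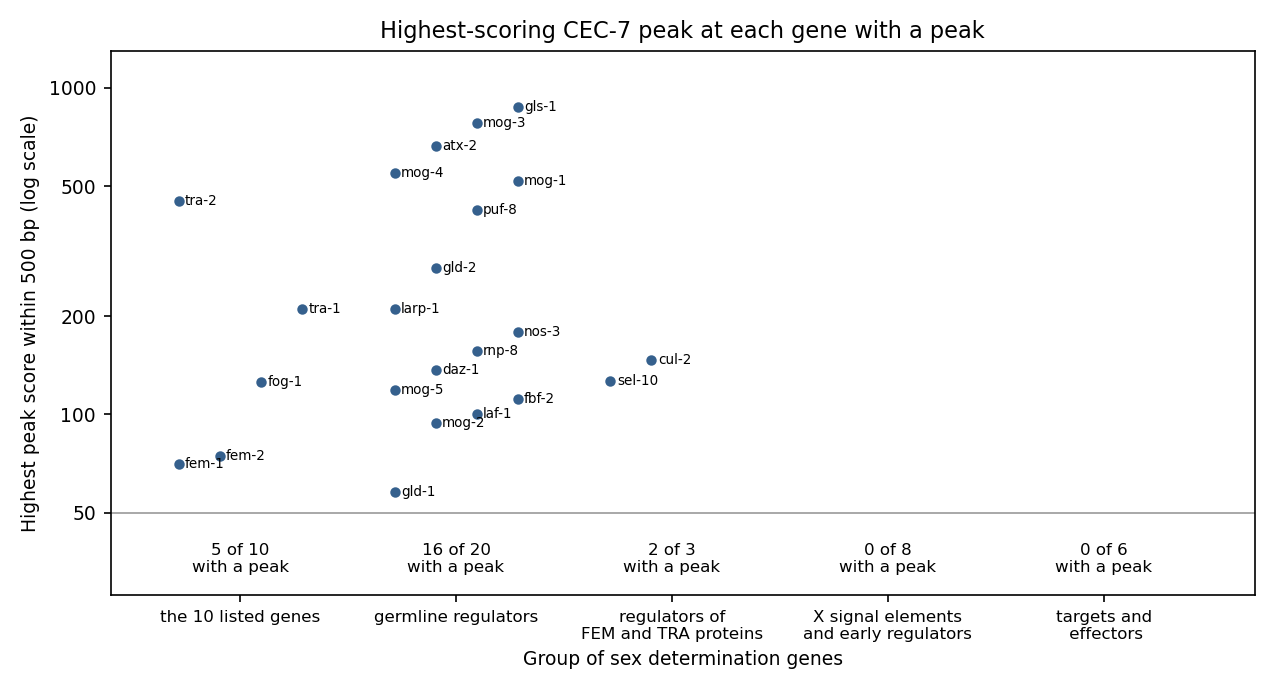
Highest CEC-7 peak score within 500 bp (log scale) for each gene with a peak, for the 10 listed genes and 4 groups of other sex determination genes, with counts of genes with a peak below the line at a score of 50. The germline regulators, 16 of 20 with a peak, reach 874.06, and the point of tra-2 at 450.52 is the peak that lies over its neighbour ceh-38.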

How the data were processed

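CEC-7 ChIP was sequenced in 1 library, with 1 input library not analysed here. The tool BWA and the build ce10 are named, per the submitters' processing notes. Per the file headers, peaks were called with MACS on WormBase WS220. The deposited score of each peak has no stated scale. The sources used here give no MACS settings, no depth and no word on the input as control. Peak positions are printed as deposited, and scores were used as ranks.

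Genes were taken by symbol from RefSeq's table for WBcel235, another build. Positions in the builds differ by about 100 bp at most, so distances to genes carry that error. Coordinates were not converted, and no gene coordinates are printed. The table gives no strand, exons or sequence, so starts, exons, introns and sequences were not analysed here. A peak counted with 1 base or more of overlap with the gene or 500 bp beside it. Background shares came from protein-coding genes of the same chromosome. By the rule for named genes, the 10 genes were all named, their neighbours too, and other pathway genes where they had a peak. The 4 germline regulators without one were named after their values were seen. Members and lists were chosen with earlier results of these data known. Overlap code was tested on simulated data, where 200 of 200 genes given a peak were recovered. Scripts ran in Python 3.11.15 with pandas 2.3.3, NumPy 2.4.6, matplotlib 3.10.9 and SciPy 1.17.1. Alternatives covered window, overlap, score, gene shifts and merging.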

Additional observations from a re-analysis of the deposited data

How the results depend on the processing

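The count of 5 genes with a peak was 4 on the body alone, with 100 or 200 bp of overlap, or with genes shifted 150 bp left, each time by the loss of fem-1. Among the higher-scoring 50% of peaks it was 2, tra-1 and tra-2, where 11.2% of all protein-coding genes had a peak. That background of 17.5% was 15.1% on the body alone, 19.7% within 1000 bp, 23% within 2000 bp and 16.5% with 200 bp of overlap. The covered share of the 10 bodies, 24.6%, was 12.6% with the higher-scoring peaks and 27.9% after peaks less than 1000 bp apart were merged. The count of 18 other pathway genes ran from 12 with the higher-scoring peaks to 19 within 2000 bp. With the higher-scoring peaks, 11 of the 20 germline regulators had one, where their chromosome shares summed to 3.61. Within 2000 bp, 16 of the 20 had one, against a sum of 6.82. Without the germline regulators, a division chosen after seeing the data, the count of 18 fell to 2. Both were among the 10 autosomal genes of that remainder, whose chromosome shares summed to 1.62. This count of 2 was thus close to its background. The count of gene starts in peaks and its alternatives were not run, since the gene table gives no strand. No paired analysis was possible because there is 1 ChIP library. Unknown depth limits what a missing peak means: weaker binding may lie below the caller's threshold.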

Other observations

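The gene of the precipitated protein itself, cec-7 on chromosome III, lay wholly under a CEC-7 peak, III:12874029-12877705, with a score of 244.47 and rank 698 of 2767. The peak was 3677 bp wide, covered 100% of the 1795 bp body and also lay over spcs-2 and reached into mrg-1, which encodes another chromodomain protein. It passed the right end of cec-7 by only 128 bp, close to the difference between the genome builds. Of the 40 neighbouring genes 6 had a peak within 500 bp (15%), against 37.1% of the other genes on III. Of the 981 other genes on III with a peak, 47.1% scored as high or higher.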
